A study of Mus musculus with 8 samples.

Results

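Genes of the Forkhead (Fox), SOX (Sox) and T-box (Tbx) transcription factor families were examined for nearby binding of RelA, the transcription-activating p65 protein of NF-kB, in mouse embryonic fibroblasts. The members were the protein-coding genes on chromosomes 1 to 19 of the RefSeq gene table of GRCm38 (the assembly that mm10 names) whose symbols read Fox, a letter and a digit, Sox and digits, or Tbx and digits. They numbered 71 of 20558 protein-coding genes, with 41 Forkhead, 18 SOX and 12 T-box genes. RelA was mapped by chromatin immunoprecipitation and sequencing in primary fibroblasts from wild-type C57BL/6 embryos, starved of serum overnight and then treated with the inflammatory cytokine TNF at 10 ng/ml. The series comprises 2 ChIP libraries for each of 0, 0.5 and 3 h of TNF and 2 libraries of input DNA. The values analysed were 1 list of 9829 peaks for the whole series, each a start and an end on mm10. Because a peak carries no height, score or library, no time could be set against another, depth and input background were unknown, and no spread between cultures could be calculated. The cell type could not be checked against marker genes either, since the list holds no expression values.

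The proteins of these families bind DNA through a winged-helix (forkhead), a high mobility group (SOX) or a T-box domain, and most of them set up or maintain a cell lineage in the embryo. FOXC, FOXF, FOXD1, TBX2 to TBX5, TBX15, TBX18 and the cartilage factors SOX5, SOX6 and SOX9 are known from mesenchyme, the tissue from which embryonic fibroblasts derive. FOXO, FOXK, FOXP1 and SOX4 are examples of members made in many cell types, while others belong to endoderm (FOXA), the nervous system (SOX1, SOX2), epithelia, endothelium, immune cells or the germ line. Many of the genes are short, have few exons and stand far from other genes. NF-kB enters the nucleus after TNF and binds promoters and distant enhancers, and a peak near a gene does not show that the gene responds.

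A gene was counted when the centre of a peak lay inside it or within 10 kb of either end. By this count 21 of the 71 members had a RelA peak (29.6%, Wilson 95% interval 20.2 to 41.0%), against 23.8% of the 20487 other protein-coding genes. With a window of 50 kb, 36 members had a peak (50.7%, Wilson 95% interval 39.3 to 62.0%), against 44.5% of the others. Both intervals cover the share of other genes, so over all members the share was near the background. With only the peaks at or above the median width counted at 10 kb, 18 members had a peak (25.4%, Wilson 95% interval 16.7 to 36.6%), against 14.6% of other genes, which lies below the interval. In each family the interval also covers 23.8%: a peak at 10 kb was found for 11 of 41 Forkhead genes (26.8%, 15.7 to 41.9%), 6 of 18 SOX genes (33.3%, 16.3 to 56.3%) and 4 of 12 T-box genes (33.3%, 13.8 to 60.9%). Narrower windows left 18 members (25.4%) at both 5 kb and 1 kb, against 20.4 and 17.5% of other genes, and 49 members (69.0%) had a peak within 100 kb, against 60.4%. A peak inside the gene itself was found in 12 members (16.9%), against 15.0% of other genes. The median distance from a member to the nearest peak centre was 49.8 kb (quartiles 3.36 and 130.3 kb), against 64.5 kb (quartiles 11.7 and 187 kb) for other genes. The intervals cover counting error only, and neighbouring genes can share a peak.

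The sequence around the start site was available for 47 members, as RefSeq windows of GRCm38.p6 that run from 250 bases before to 50 bases after a listed start. Of the 21 members with a peak at 10 kb, 12 had such a window. Members without one, such as Tbx3, Foxs1 and Foxh1, could not be counted here. A peak overlapped such a window in 3 members, Foxd2, Foxj3 and Foxp4 (3 of 57 windows, 5.26%, against 5.43% of 20028 windows of other genes). These windows are printed 5′ to 3′ in the direction of the gene because they are the member windows that a peak overlaps. The window of Sox6 at chr7:116030998-116031297 (minus strand) is printed beside them because it was picked for holding a narrower kappaB form, given below. A RelA peak begins 414 bases upstream of it. Capitals mark every match to GGGNNNNNCC on either strand, a loose form of the kappaB site that NF-kB recognises, in which N is any base and matches may overlap.
Foxd2: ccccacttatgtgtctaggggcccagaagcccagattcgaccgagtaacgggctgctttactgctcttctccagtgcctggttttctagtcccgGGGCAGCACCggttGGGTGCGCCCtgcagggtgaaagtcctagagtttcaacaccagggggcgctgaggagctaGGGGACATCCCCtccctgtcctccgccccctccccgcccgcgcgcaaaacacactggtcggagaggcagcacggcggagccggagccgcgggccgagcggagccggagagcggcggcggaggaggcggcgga
Foxj3: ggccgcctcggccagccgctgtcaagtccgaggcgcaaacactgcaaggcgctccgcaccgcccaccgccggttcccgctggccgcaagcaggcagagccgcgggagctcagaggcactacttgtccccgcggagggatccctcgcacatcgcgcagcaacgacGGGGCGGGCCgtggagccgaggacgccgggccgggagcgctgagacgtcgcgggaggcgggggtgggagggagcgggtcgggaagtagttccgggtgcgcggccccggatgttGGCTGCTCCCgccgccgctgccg
Foxp4: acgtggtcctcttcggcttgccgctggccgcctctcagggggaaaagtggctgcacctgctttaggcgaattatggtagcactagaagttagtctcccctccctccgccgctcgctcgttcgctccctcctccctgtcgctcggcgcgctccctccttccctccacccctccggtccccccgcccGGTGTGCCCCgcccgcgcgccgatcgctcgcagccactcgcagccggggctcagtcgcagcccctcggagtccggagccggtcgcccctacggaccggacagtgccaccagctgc
Sox6: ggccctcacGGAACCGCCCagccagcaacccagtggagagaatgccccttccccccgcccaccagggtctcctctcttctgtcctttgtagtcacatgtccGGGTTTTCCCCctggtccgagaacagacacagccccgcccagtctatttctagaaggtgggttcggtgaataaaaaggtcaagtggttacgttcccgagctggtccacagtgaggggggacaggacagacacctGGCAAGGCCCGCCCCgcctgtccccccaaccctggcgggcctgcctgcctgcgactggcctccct
The Foxd2 window (chr4:114908849-114909148, minus strand) lies wholly within its 769 bp peak, and the Foxj3 window (chr4:119539411-119539710, plus strand) wholly within its 877 bp peak. The Foxp4 peak covers 80 of the 300 bases of chr17:47924583-47924882 (minus strand), at the upstream end. Neither the listed start of Foxp4 nor the match marked in its window lies in that peak. In Foxd2 the run GGGGACATCCCC, which begins 82 bases before the start, holds 3 overlapping matches. The loose form is common, however: it was found in 57.8% of windows of other genes, in 64.9% of member windows and in 79.6% of other windows that overlap a peak. The narrower form GGGNNNTTCC, searched on both strands, was in none of the 3 member windows with a peak. Among windows of other genes it was in 16.6% of those that overlap a peak and 5.23% of those that do not. The printed window of Sox6 was the only 1 of the 57 member windows (1.75%) to hold the narrower form, against 5.85% of windows of other genes. Further listed windows of Sox6 do not hold it. The match is GGAACCGCCC, which is that form read on the other strand, and its first base lies 241 bases before the listed start. A match is a description of the letters and not of a bound site.

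Mesenchymal members came next. Of 17 genes in this list, 7 had a peak inside or within 10 kb (41.2%, Wilson 95% interval 21.6 to 64.0%), an interval that covers the 23.8% of other protein-coding genes. These 7 genes had 18 peaks between them. In all 7 the nearest peak centre was inside the gene or within 0.165 kb of it. Sox5 and Sox6 encode closely related factors that act with SOX9 in cartilage. Sox5 (chromosome 6, 143828425 to 144782287) held 5 peaks, 519 to 731 bp wide, at 1.71, 32.8, 35.4, 49.4 and 89.9% of the gene counted from its lower chromosome position. Sox6 (chromosome 7, 115470872 to 116040776) held 4 peaks, at 16.5, 34.5, 81.8 and 98.5% of the gene, the last of them at 116031712 to 116032409, beside the window printed above. In both genes the peaks were spread through the body, and no peak lay in the 50 kb beyond either end.

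The T-box genes with a peak included 3 of limb and body wall mesenchyme. Tbx15, a regulator of limb and trunk skeleton and of skin patterning (chromosome 3, 99240348 to 99354260), held 4 peaks inside and had another 18.4 kb beyond its upper end. A pair of the inside peaks, at 99246538 to 99247001 and 99247487 to 99247919, stood side by side near the lower end of the gene. Tbx3, needed for limb and mammary development, had a 1340 bp peak at 119669971 to 119671310 on chromosome 5, with its centre 0.106 kb inside the gene end. This was the widest of the 40 peaks at members, whose median width was 696 bp, against 687 bp for all 9688 peaks on chromosomes 1 to 19. The forelimb and heart gene Tbx5, 112 kb from Tbx3, held 1 peak of 789 bp, 16.9 kb from its upper end. Foxd2 and Foxs1 were the mesenchymal Forkhead genes with a peak. The peak at Foxd2 was centred 0.104 kb upstream, and Foxs1, a gene known from perivascular cells, had a peak 0.165 kb from its lower end. A second Foxs1 peak, 9.98 kb away, lay within the neighbouring phosphatase gene Dusp15.

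The other 10 mesenchymal genes had no peak within 10 kb. Foxf2 had its nearest peak at 17.6 kb. Tbx4 (61.9 kb), the cartilage regulator Sox9 (62.9 kb), Tbx2 (72.4 kb) and Tbx18 (76.0 kb) lay beyond 50 kb. Foxd1, Foxl1, Foxc1, Foxc2 and Foxf1 were 117 to 175 kb from a peak. Foxf1, Foxc2 and Foxl1 lie close together on chromosome 8. The gap from Foxf1 to Foxc2 is 28.0 kb and holds the gene Mthfsd, and that from Foxc2 to Foxl1 is 8.79 kb. No peak centre lay within 100 kb of any of these 3 Forkhead genes. In this list 7 genes thus held or touched a peak and 9 had none within 50 kb. The share with a peak within 50 kb, 47.1%, was near the 44.5% of other protein-coding genes.

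**Figure D1:**
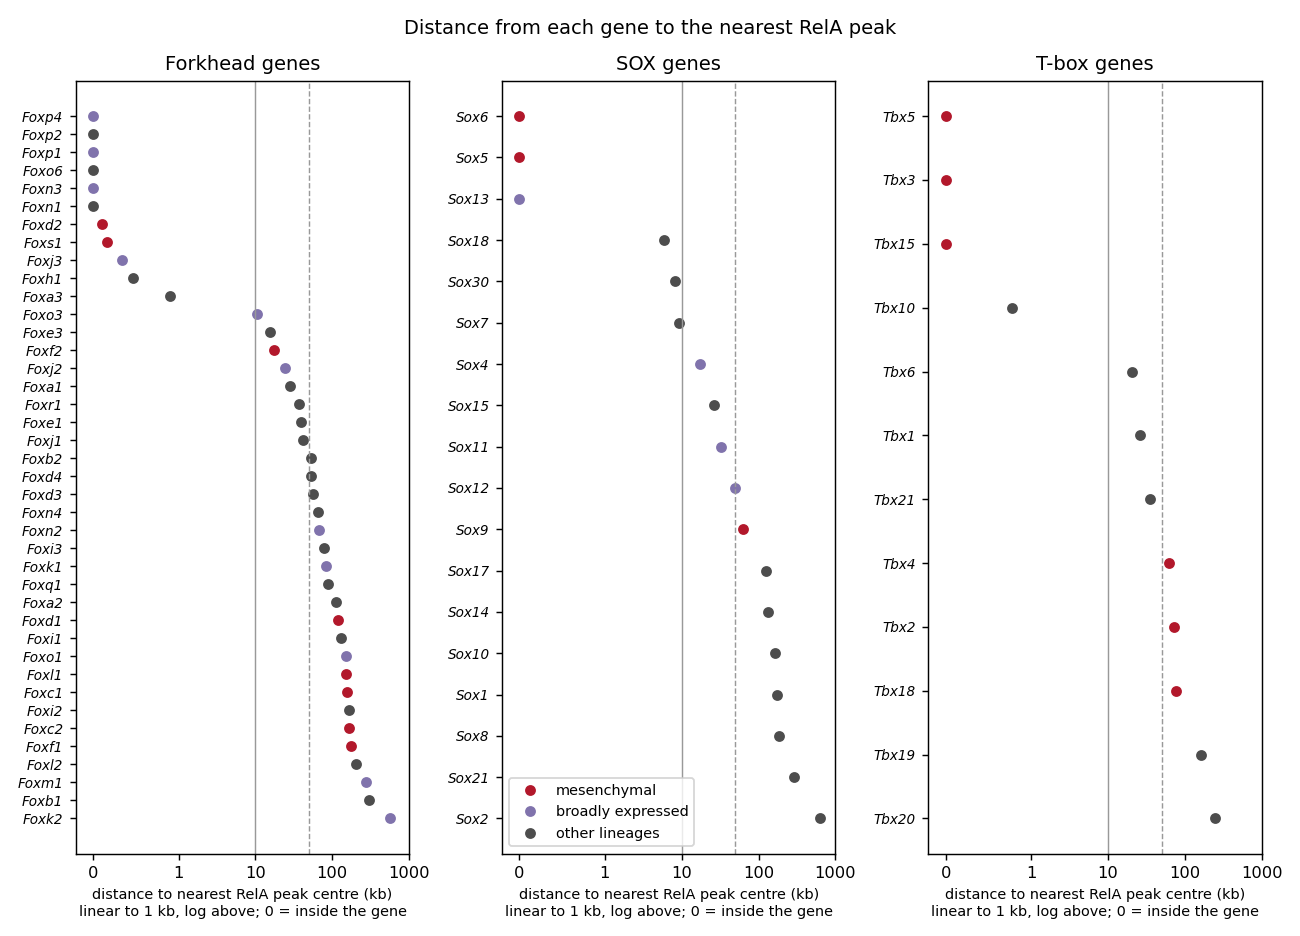
Distance in kb from each of 70 of the genes to the nearest RelA peak centre, 1 point per gene, by family and coloured by lineage; the axis is linear to 1 kb and logarithmic above, 0 stands for a peak inside the gene, and the vertical lines mark 10 and 50 kb. In the mesenchymal list 7 genes lie at or below 0.165 kb and the remaining 10 lie between 17.6 and 175 kb.

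Broadly expressed members reached 5 of 15 at 10 kb (33.3%, Wilson 95% interval 15.2 to 58.3%), an interval that also covers the 23.8% of other genes. Foxp1 and Foxp4 encode forkhead proteins that mainly repress transcription. Foxp1 (chromosome 6, 98925342 to 99522746) held 3 peaks and had another centred 0.707 kb upstream of the gene, at 99523216 to 99523690. Foxp4 on chromosome 17 had 3 peaks at its start, centred 0.639 kb upstream of the gene end and 0.959 and 5.51 kb inside it. With Foxp2, named below among other lineages, all 3 FOXP genes on these chromosomes had a peak. They were 57.5 to 597 kb long. By the same count 45.1% of other genes over 50 kb had a peak, and 56.6% of other genes over 100 kb. The repressor gene Foxn3 on chromosome 12 held 3 peaks, all 39.8 kb or more from its ends. Foxj3 had the promoter peak described above, centred 0.335 kb upstream of the gene, with the end of Frg2f1 0.557 kb from the same centre. Sox13, of the same SOX group as Sox5 and Sox6, held 1 peak 1.32 kb inside its nearest listed start.

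A further 5 broadly expressed genes had their nearest peak between 10 and 50 kb. Foxo3, a forkhead gene controlled by insulin and AKT signalling, stood just outside the 10 kb limit at 10.6 kb, with a second peak at 37.4 kb. Sox4 (17.1 kb), Sox11 (32.5 kb) and Sox12 (49.8 kb, just inside the 50 kb limit) make up the SOXC group, and Foxj2 lay at 24.5 kb. The peaks nearest to Sox4 and Sox11 stood in regions with no other protein-coding gene closer. Those nearest to Sox12 and Foxj2 lay inside Trib3 and Slc2a3. Foxn2 (68.0 kb), Foxk1 (83.3 kb), Foxo1 (152 kb), the cell cycle regulator Foxm1 (273 kb) and Foxk2 (562 kb) had none within 50 kb. The 5 genes of this list with a peak at 10 kb were 42.2 to 597 kb long, and long genes without one were Foxo3 (94.9 kb), Foxo1 (81.8 kb), Foxk1 (60.5 kb), Foxk2 (49.9 kb) and Foxn2 (49.8 kb).

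Members of other lineages reached 9 of 39 at 10 kb (23.1%, Wilson 95% interval 12.6 to 38.3%), close to the 23.8% of other genes, and had 10 peaks in all. Peaks inside the gene were found in 3 of them. Foxn1, the regulator of thymic epithelium, held 1 peak of 577 bp 4.01 kb from its upper end, and Foxo6, a FOXO gene known from the brain, held 1 of 925 bp 4.11 kb from its upper end. Foxp2, known from brain circuits for vocal learning, held 1 peak 184 kb from its end and had another 0.693 kb outside its lower end. For 3 more of the 9, another gene lay closer to the peak. The peak 0.467 kb from Foxh1, whose protein is a SMAD partner in nodal signalling, was centred inside Ppp1r16a. The 1175 bp peak 0.777 kb from Tbx10 was 0.291 kb from Nudt8, and the peak 5.82 kb from the endothelial gene Sox18 was 2.84 kb from Tcea2. The peaks at Foxa3 (0.898 kb), a liver and gut gene, at Sox30 (8.19 kb), a gene of male germ cells, and at Sox7 (9.14 kb, the member just inside the 10 kb limit), a gene of endoderm and endothelium, had no closer protein-coding gene.

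Of the remaining genes of other lineages, 9 had their nearest peak between 10 and 50 kb. These were Foxe3 (15.4 kb), Tbx6 (20.8 kb), Tbx1 (25.9 kb), Sox15 (26.4 kb), Foxa1 (28.2 kb), Tbx21 (35.1 kb), Foxr1 (37.1 kb), Foxe1 (39.4 kb) and Foxj1 (42.0 kb). The Foxe3 peak is the peak at the start of its neighbour Foxd2. The nearest peaks of the other 8 all lay inside another gene, among them Mapk3 for Tbx6, Tbkbp1 for Tbx21 and Tnfsf13 for Sox15. Foxb2 (53.3 kb, just outside the 50 kb limit), Foxd4, Foxd3, Foxn4, Foxi3 and Foxq1 (88.1 kb) lay between 50 and 100 kb. A further 14 were 112 to 630.3 kb from a peak: Foxa2, Sox17, Foxi1, Sox14, Tbx19, Foxi2, Sox10, Sox1, Sox8, Foxl2, Tbx20, Sox21, Foxb1 and Sox2. They include all 4 SOXB genes on chromosomes 1 to 19 (Sox1, Sox2, Sox14 and Sox21), factors of neural progenitors, at 131 to 630.3 kb. These 4 genes were only 2.06 to 4.04 kb long, and the pluripotency gene Sox2 was the member farthest from any peak. Within 100 kb, 64.1% of members of other lineages had a peak, near the 60.4% of other protein-coding genes.

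**Figure D2:**
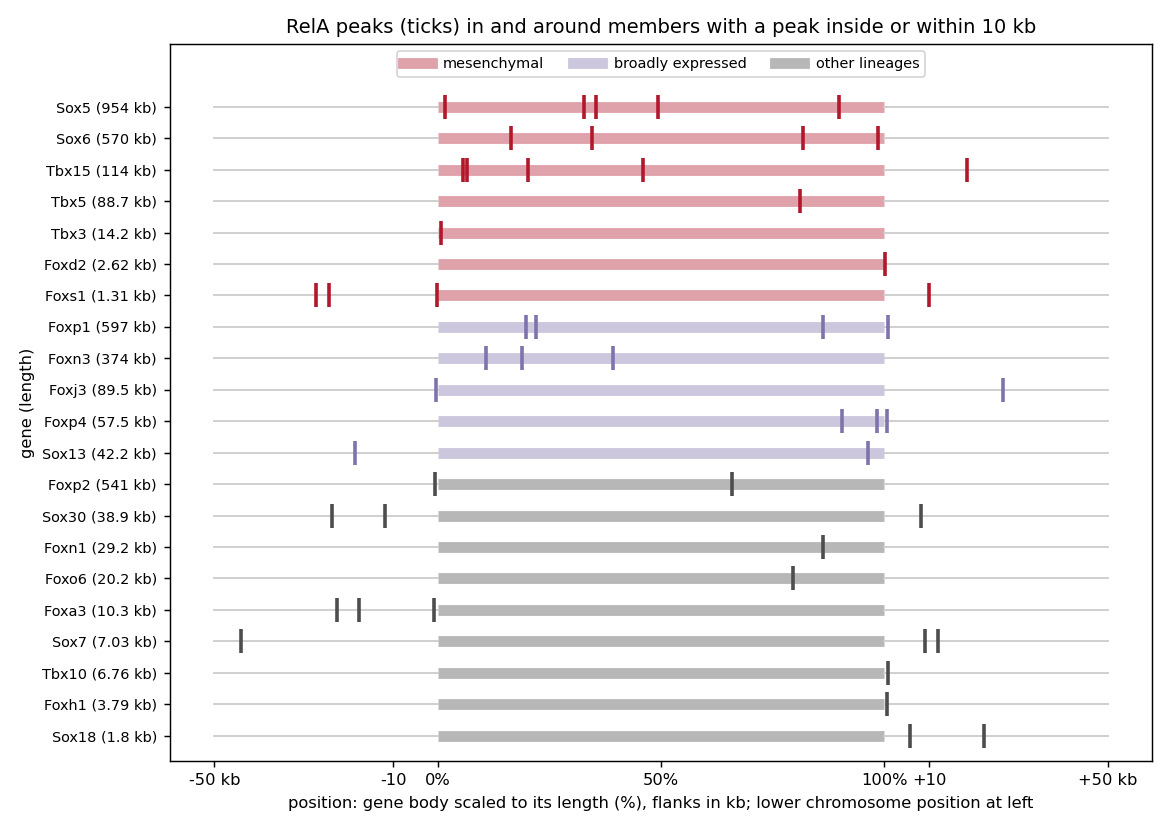
Peaks (ticks) in and around the 21 members with a peak inside or within 10 kb, each gene body (coloured by lineage) scaled to its own length, given in kb, and each flank drawn to 50 kb, with the lower chromosome position at the left. Sox5, Sox6, Tbx15, Foxp1 and Foxn3 hold 3 to 5 peaks inside, while in the genes under 10 kb long all peak centres lie outside the gene.

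The mesenchymal list and the list of other lineages were then set side by side. At 10 kb the shares were 41.2 and 23.1%, a difference of 18.1 percentage points, and the Wilson intervals overlap (21.6 to 64.0% and 12.6 to 38.3%). At 1 kb they were 41.2 and 15.4%, against 17.5% of other protein-coding genes, and the intervals again overlap (21.6 to 64.0% and 7.25 to 29.7%). At 50 kb the shares were 47.1 and 46.2%, beside 44.5% of other genes. The median distances to a peak ran the other way, 61.9 kb for mesenchymal genes and 53.6 kb for other lineages. Gene length moved with the lists: 4 of 17 mesenchymal genes and 2 of 39 genes of other lineages were over 50 kb long, and all 4 long mesenchymal genes had a peak. Among genes under 50 kb, 3 of 13 mesenchymal genes (23.1%) and 8 of 37 of other lineages (21.6%) had a peak, a difference of 1.46 percentage points. With peaks counted only within 10 kb of a gene end, the shares were 29.4 and 23.1%, against 17.7% of other genes. No test was made of these differences.

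**Figure D3:**
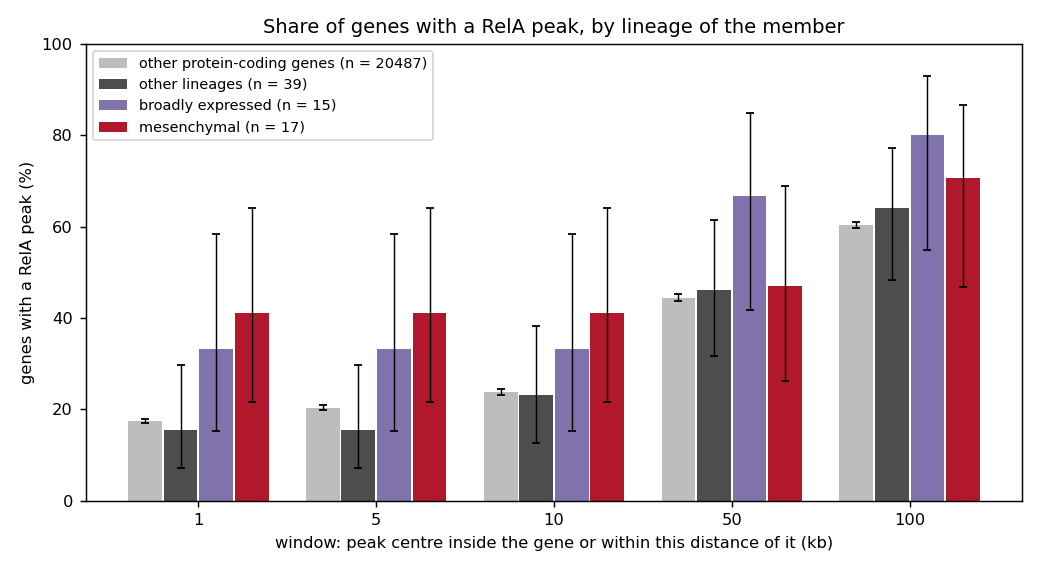
Share of genes (%) with a RelA peak centre inside the gene or within 1, 5, 10, 50 or 100 kb of it, for the 17 mesenchymal, 15 broadly expressed and 39 other members and for the 20487 other protein-coding genes, with Wilson 95% intervals as bars. The mesenchymal share is 41.2% at 1, 5 and 10 kb and 47.1% at 50 kb, where it is next to the 46.2% of other lineages.

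Members were next divided by gene length. Of the 32 members under 5 kb, 4 had a peak at 10 kb (12.5%, Wilson 95% interval 4.97 to 28.1%), against 9.29% of other genes of that length, and these were Foxd2, Foxs1, Foxh1 and Sox18. From 5 to 50 kb the share was 8 of 26 (30.8%, Wilson 95% interval 16.5 to 50%), against 20.6%. Over 50 kb it was 9 of 13 (69.2%, Wilson 95% interval 42.4 to 87.3%), against 45.1%. In each of these 3 classes the member share was the higher value and its interval covered the share of other genes. The 4 long members without a peak at 10 kb were Foxo3, Foxk1, Foxo1 and Tbx20. All 6 members over 100 kb (Sox5, Foxp1, Sox6, Foxp2, Foxn3 and Tbx15) had a peak inside (Wilson 95% interval 61.0 to 100.0%), against 52.7% of 2306 other genes over 100 kb, which lies below the interval. This class was not among the planned ones, and lengths within it were not matched. The 6 members had 3.15 Mb of gene body, against 589 Mb in the 2306 other genes, so the members were the longer genes. The 6 members held 20 of the 27 peaks inside members. Per length of gene body this was 6.35 peaks per Mb in the 6 members, against 4.32 per Mb pooled over the other genes, whose median was 2.02 per Mb. Single genes ran from 1.85 per Mb in Foxp2 through 5.02 in Foxp1, 5.24 in Sox5, 7.02 in Sox6 and 8.03 in Foxn3 to 35.1 in Tbx15.

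**Figure D4:**
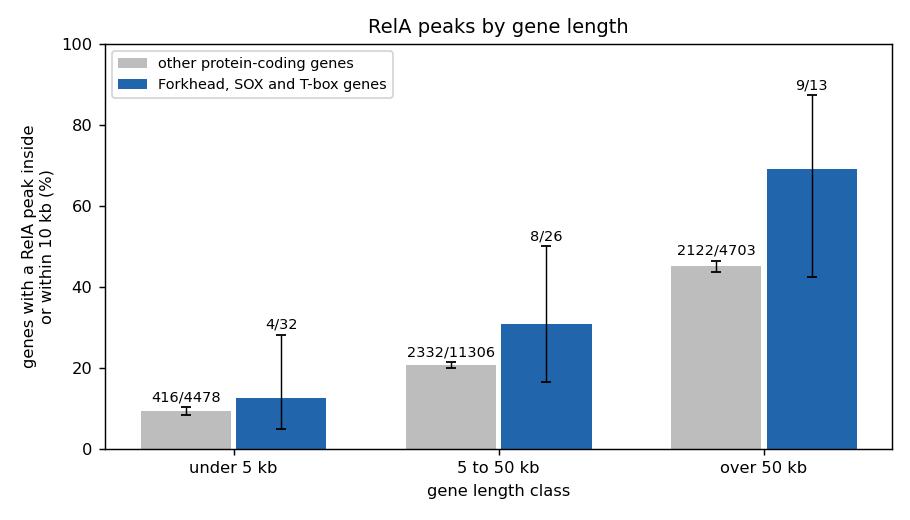
Share of genes (%) with a RelA peak inside or within 10 kb in 3 classes of gene length, for members (blue) and other protein-coding genes (grey), with Wilson 95% intervals as bars and the counts above them. Both groups have their lowest share under 5 kb (12.5 and 9.29%) and their highest over 50 kb (69.2 and 45.1%).

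The members also differ from other genes in their surroundings. The median gap to the nearest other protein-coding gene was 19.1 kb for members and 4.83 kb for other genes, and members had a median of 2 such neighbours within 100 kb, against 4. Where a gene had at most 2 neighbours, 6 of 11 mesenchymal members had a peak within 50 kb (54.5%, Wilson 95% interval 28.0 to 78.7%), and so did 6 of 8 broadly expressed members (75.0%, Wilson 95% interval 40.9 to 92.9%). Of 19 members of other lineages with as few neighbours, 3 had a peak within 50 kb (15.8%, Wilson 95% interval 5.52 to 37.6%), namely Foxo6, Foxp2 and Foxa1. The share was 44.8% among other genes with at most 2 neighbours, above the interval of the list of other lineages. The order of the lists was not the same in the other classes. With 3 to 6 neighbours a peak within 50 kb was found for 1 of 5 mesenchymal members (Wilson 95% interval 3.62 to 62.4%), 3 of 4 broadly expressed members and 6 of 9 members of other lineages (66.7%, Wilson 95% interval 35.4 to 87.9%), against 42.6% of other genes. With 7 or more neighbours the counts were 1 of 1 mesenchymal, 1 of 3 broadly expressed and 9 of 11 members of other lineages (81.8%, Wilson 95% interval 52.3 to 94.9%), against 46.9% of other genes. Length moves with these classes as well, and its part in them was not tested.

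Linked genes outside the families were counted in the same way. Of 16 regulators of FOXO activity in the insulin, PI3K and AKT pathway, 7 had a peak at 10 kb (43.8%, Wilson 95% interval 23.1 to 66.8%), with the receptor gene Igf1r and the kinase gene Sgk1 holding 2 and 3 peaks inside. Of 18 FOXO target genes, 8 had a peak (44.4%, Wilson 95% interval 24.6 to 66.3%), nearest at Sod2, which is also a well-known NF-kB target, Bcl2l11 and Sesn1, all with a peak inside. Cartilage genes controlled by SOX9, SOX5 and SOX6 numbered 14, of which 1 had a peak (7.14%, Wilson 95% interval 1.27 to 31.5%), the collagen gene Col27a1 with 3 inside, and Col9a2 and Col11a1 followed at 10.4 and 11.9 kb. Of 12 FOXM1 targets of cell division 1 had a peak (8.33%, Wilson 95% interval 1.49 to 35.4%), Birc5 at 0.207 kb, with Ccna2 and Cks1b next at 12.7 and 20.2 kb. Of 19 other regulators of limb and body wall mesenchyme, 8 had a peak (42.1%, Wilson 95% interval 23.1 to 63.7%). Of these, Prrx1, Msx1, Prrx2, Gli3, Lmx1b, Meis2 and Runx2 held 1 to 3 peaks inside, and ran from 4.09 kb long (Msx1) to 319 kb (Runx2). Gene length was not matched in any of the lists, and 45.1% of other genes over 50 kb had a peak at 10 kb. All of these intervals but that of the FOXO targets cover the 23.8% of other genes at 10 kb. The FOXO targets reached 22.2% at 1 kb and 55.6% at 50 kb, against 17.5 and 44.5% of other genes. In each of these windows the Wilson 95% interval of the FOXO targets covers the share of other genes.

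Among other families of transcription factors, 22 of 45 nuclear receptor genes (48.9%, Wilson 95% interval 35.0 to 63.0%) had a peak at 10 kb, as did 13 of 39 HOX genes (33.3%) and 5 of 16 Krueppel-like factor genes (31.2%). At 50 kb the shares were 62.2% for nuclear receptor genes, 87.2% for HOX genes, which stand in clusters and share peaks, and 50% for Krueppel-like factor genes, beside 50.7% for the Forkhead, SOX and T-box genes. Among the other protein-coding genes the shares were 23.8% at 10 kb and 44.5% at 50 kb. The interval of the nuclear receptor genes at 10 kb lies above 23.8%, and the interval of the members (20.2 to 41.0%) overlaps it. Median gene length was 46.5 kb for nuclear receptor genes, 10.8 kb for Krueppel-like factor genes, 6.63 kb for members and 3.74 kb for HOX genes. The part of length in these shares was not tested.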

How the data were processed

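The deposited file gives each peak as a chromosome with 2 positions on mm10. The submitters' processing notes name MACS2, deepTools, Bowtie2 2.3, Picard 1.13, SAMtools and cutadapt 1.9.1. What each tool did, the threshold for a peak, how inputs entered and whether libraries were pooled is not given in the sources used here. Per the labels' protocols, a protein cross-linker (disuccinimidyl glutarate) was used before formaldehyde, so RelA held on DNA by partner proteins can also give peaks.

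Starts were converted to positions counted from 1. Genes came from the RefSeq table of GRCm38.p6, without 345 entries whose positions refer to scaffolds. The 6 peaks on contigs were not used. Strand was taken from the RefSeq promoter table, which holds 47 members, and is not used for the rest. Counts were made with Python 3.11.15, pandas 2.3.3 and SciPy 1.17.1, and the counting was checked on simulated data. The lists were written from general knowledge. Members, lists and settings were chosen with earlier results of these data known, so no set test was made. A member and a linked gene are not reported by name here. All other members are named, those with a peak within 10 kb with their peaks, and of each linked list the 3 genes nearest to a peak, or all that hold one where more than 3 do. SOX and FOXP groups were named after their values were seen.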

Additional observations from a re-analysis of the deposited data

How the results depend on the processing

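No paired analysis was possible because the peak list holds no value per library. The 21 members with a peak at 10 kb became 36 at 50 kb and 49 at 100 kb, and 12 when only peaks inside the gene or only peaks outside it were counted, while 10 other settings stayed within 1.5 times. The 36 members at 50 kb became 21 at 10 kb. Forkhead genes went from 11 to 19 and 28 at 50 and 100 kb, T-box genes from 4 to 7 and 10, and SOX genes from 6 to 10 and 11, and to 3 at both 1 and 5 kb. The share of other genes moved too, from 23.8% to 44.5 and 60.4% at 50 and 100 kb, and to 17.5 and 20.4% at 1 and 5 kb. Only peaks inside or only peaks outside the gene gave 15.0 and 11.1% of other genes, against 16.9% of members in both. The difference between mesenchymal genes and other lineages went from 18.1 percentage points to 0.905 at 50 kb and 6.49 at 100 kb. Its sign stayed positive in the 14 settings tried, several of which gave the same counts. These settings included 2 chosen after seeing the data, without Sox5 and Sox6 (10.3 points) and with genes under 50 kb only (1.46 points). Peaks outside the gene only were not among the 14, and there the order was the reverse. Within 10 kb such peaks lay at Foxd2 and Foxs1 among the 17 mesenchymal genes. Among the 39 genes of other lineages they lay at Foxa3, Foxh1, Foxp2, Sox7, Sox18, Sox30 and Tbx10. With the wider peaks only, 18 members (25.4%) had a peak, against 14.6% of other genes, below the Wilson interval of 16.7 to 36.6%. The unknown depth and peak threshold limit every absence of a peak.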

Other observations

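X-linked genes with symbols of the same form had no peak inside or within 10 kb, and neither did the T-box genes T, Mga, Eomes and Tbr1. Most genes lack one: the share with such a peak was 23.8% among the other protein-coding genes on chromosomes 1 to 19. Of the 9823 peaks on chromosomes 1 to 19 and X, 9688 were on chromosomes 1 to 19. On the X chromosome the nearest peaks lay 168 kb from Foxp3, 337 kb from Foxr2, 384 kb from Tbx22, 667 kb from Foxo4 and 1324 kb from Sox3. Among T-box genes with other symbols, T (brachyury, 25.6 kb), Mga (25.9 kb) and Eomes (31.4 kb, 2 peaks) had a peak within 50 kb, and Tbr1 lay 209 kb from any peak.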
